A study of Rattus norvegicus with 23 samples.

Results

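The genes described here are 32 markers of macrophages and other leukocytes, taken by symbol from a table of read counts in rat gastrocnemius muscle. Of these, 31 were found among the 18903 named entries of the table, and Itgam was not matched and is not analysed here. They comprise macrophage receptors and markers, phagocyte enzymes and oxidase subunits, bacterial sensors, leukocyte surface and adhesion proteins, a chemokine with its receptors, the C1q subunits, signaling adaptors with a transcription factor, an antigen presentation gene, cytokines and T cell genes.

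Macrophages resident in skeletal muscle lie in the connective tissue between the fibers, where they clear debris, take up hemoglobin and iron, make most of the local complement C1q, and help fibers to regenerate after injury. Monocytes enter the tissue from blood along the chemokine CCL2, which is read by the receptor CCR2, and high fat feeding is widely studied for its effect on such recruitment, best known in adipose tissue. In whole muscle these cells are few, so their transcripts are a small share of the reads, and in bulk tissue fewer cells and less RNA per cell cannot be told apart.

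RNA was sequenced from 23 Wistar rats, 1 library per rat, as 5 females on chow (F-Chow), 6 females on a high fat, high sucrose diet (F-HFHS), 6 males on chow (M-Chow) and 6 males on the same HFHS diet (M-HFHS), to ask whether the muscle response to the diet depends on sex. Diets began at 4 weeks of age and lasted 14 weeks. All rats were housed at thermoneutrality and fasted briefly before tissue collection. Females were ovariectomized at 12 weeks and given estradiol in the drinking water, except for a sham operated subset, and the operation of each female in the table is not given in the labels, so sex here includes this procedure. P-values describe the spread between these rats.

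The labels of 3 females conflict. The treatment label of rat 205 is HFHS and its title reads HSHS, taken here as HFHS, but its column code gives Chow, while for rats 224 and 225 the title and the treatment label give Chow and the code HFHS. Groups here follow the column codes. With these the aryl hydrocarbon receptor target Cyp1a1 was at a CPM of 0, where CPM is the read count scaled to library size, in all 5 F-Chow rats and between 0.425 and 3.49 CPM in F-HFHS, and it lay between 0 and 0.0339 CPM in M-Chow against 0.136 to 2.21 CPM in M-HFHS. The headings of the male blocks in a heat map of the study run the other way for this gene, and every diet direction in males given here rests on the deposited labels. Libraries held 21152221 to 51305283 counts. All CPM are scaled by trimmed mean of M values (TMM) and are not corrected for gene length, so levels are compared between rats and not between genes.

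Of the 31 genes, 27 passed the filter on low counts. The 4 that did not were the fractalkine receptor Cx3cr1 with 0 to 10 counts per rat, the T cell genes Cd3e with 0 to 9 and Cd8a with 0 to 13, and the inflammatory cytokine Tnf, which had 2 counts in M-Chow rat 115 and 0 counts in every other library. The 27 tested genes included all 6 macrophage receptors and markers, all 3 C1q subunits and all 5 phagocyte enzymes and oxidase subunits. Cd74, the invariant chain of class II antigen presentation, had 1540 to 4147 counts per rat. Lyz2, a lysozyme of myeloid cells, had 507 to 1516, and Csf1r, the receptor on which most macrophages depend for survival, had 220 to 893. At the low end were Il1b, which encodes interleukin-1β, with 1 to 24 counts, and Tlr2, a receptor for bacterial lipopeptides, with 7 to 50. CD4 is carried by macrophages as well as helper T cells in rats, and Cd4 had 77 to 350 counts per rat, whereas Cd3e, a subunit of the T cell receptor complex, was near 0.

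The widest spread among these genes belonged to a single library. In F-Chow rat 205, 26 of the 27 tested genes were the lowest of the 5 F-Chow rats, against 27.4% of all tested genes, and 23 were the lowest of all 23 rats, against 10.5% of all tested genes. Their median level in rat 205 was 39.8% of the mean of the other 4 F-Chow rats, where the median over all tested genes was 100%. Ptprc, the pan-leukocyte phosphatase CD45, was at 0.486 CPM in rat 205 and at 2.37, 2.32, 2.28 and 2.35 CPM in the other 4. Csf1r was at 6.29 CPM in rat 205 and at a mean of 17.5 CPM in the others. The values ran from 11.3% for Il1b to 81.4% for Ccl2, and 19 genes were below 50%. Some further leukocyte lists, given below, were not lowest in rat 205. Other macrophage and monocyte genes summed to 111 CPM, where the lowest of the other F-Chow rats had 103.6. Dendritic cell genes summed to 4.685 CPM against at least 3.719, and B and plasma cell genes to 1.6 against at least 1.537. The pan-leukocyte (73.3 against at least 90.8), class II (48.5 against at least 79.6), T and NK cell, neutrophil and chemokine lists were lowest in it. Other tissue markers moved in this library as well. Summed CPM were 33.7 for erythroid genes, where the lowest of the other F-Chow rats had 119.6, and 502 for fibroblast genes, where the lowest of the others had 683. Mast cell genes summed to 11.5 CPM against at least 19.5, and endothelial genes to 425 CPM against at least 430.3. Muscle fiber genes summed to 247100 CPM, the highest of the F-Chow rats, and Myh7, the slow myosin heavy chain, was at 196 CPM against 4717 to 8272 CPM in the other 4. The part of the diet conflict or of the tissue sampled in these low values was not tested. The main results are given below with and without rat 205. Because rat 205 was singled out by the levels of these same genes, p-values without it are not an independent test.

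**Figure D1:**
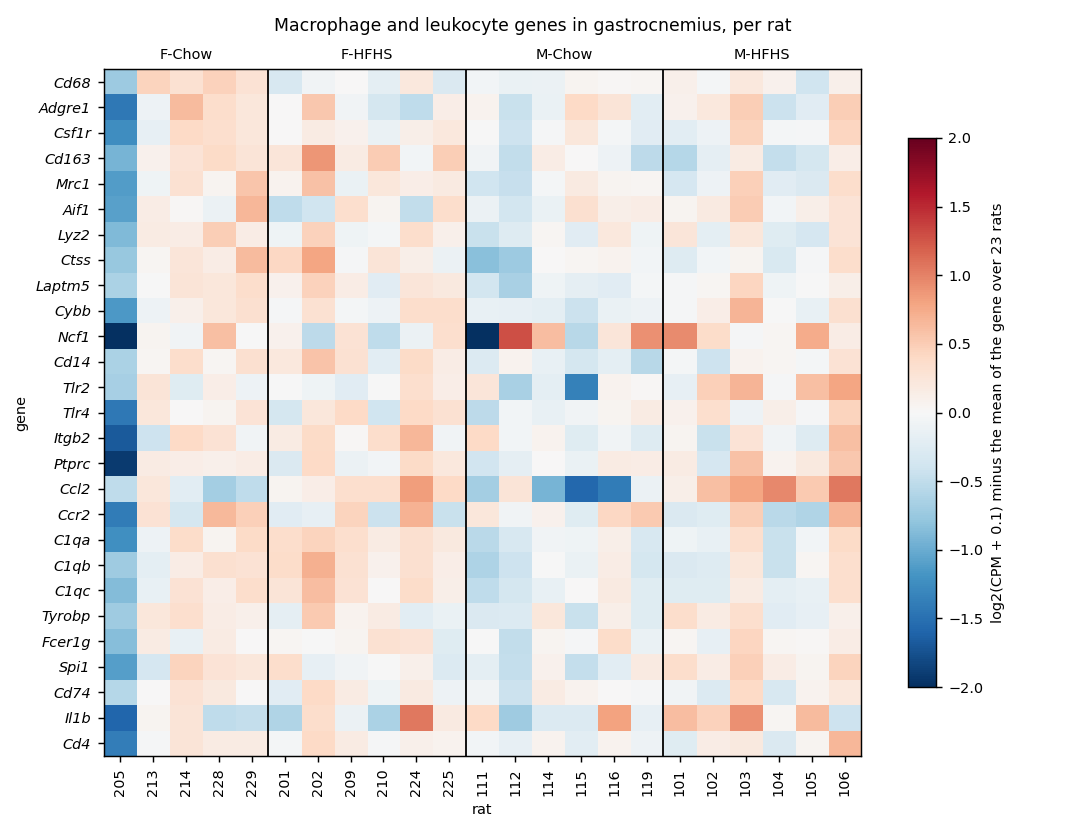
Each cell shows log2(CPM + 0.1) of a gene in a rat minus the mean of that gene over the 23 rats, for the 27 tested genes in the 4 groups. The column of rat 205 is blue in nearly all genes, and Ncf1 has a second blue cell in M-Chow rat 111.

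By role, the summed level of the 6 macrophage receptors and markers was 31.2 to 40.9 CPM in F-Chow apart from 14.3 CPM in rat 205, 32.02 to 41.4 CPM in F-HFHS, 23.8 to 36.3 CPM in M-Chow and 27.3 to 42.2 CPM in M-HFHS. The 3 C1q genes summed to 36.7 to 51.8 CPM in F-Chow apart from 21.3 CPM in rat 205, 43.1 to 61.7 CPM in F-HFHS, 27.8 to 45.2 CPM in M-Chow and 32.1 to 51.9 CPM in M-HFHS. In both roles all 4 groups overlapped. The 3 bacterial sensor genes, Cd14, Tlr2 and Tlr4, summed to 4.29 to 4.90 CPM in F-Chow apart from 2.23 CPM in rat 205. Their sum was 3.48 to 5.49 CPM in F-HFHS, 3.05 to 3.91 CPM in M-Chow and 4.01 to 5.63 CPM in M-HFHS. The male diets did not overlap in this sum, and apart from rat 205 neither did F-Chow and M-Chow. The sum was not tested, and how often other gene sums fail to overlap is not given. Cd74 was at 81.9 to 99.3 CPM in F-Chow apart from 54.8 CPM in rat 205, 69.9 to 107.8 CPM in F-HFHS, 60.4 to 91.5 CPM in M-Chow and 65.5 to 107.6 CPM in M-HFHS. The adaptor and transcription factor genes Tyrobp, Fcer1g and Spi1 summed to 8.53 to 9.15 CPM in F-Chow apart from 4.31 CPM in rat 205, and to 5.95 to 10.7 CPM over the other groups.

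By sex, 0 of the 27 genes passed an adjusted p of 0.05 in edgeR with all 23 rats, where 8.97% of all tested genes did. At an unadjusted p of 0.05, 5 genes were lower in males and 0 higher, which were Cd163, Ctss, Cd14, C1qb and C1qc, against 12.6% of all tested genes lower. DESeq2 gave 1 gene, Cd163, where it gave 12.1% of all tested genes. Without rat 205, 5 of the 27 were lower in males in edgeR and 0 higher, against 4.92% of all tested genes lower. These were Cd163, Cd14, C1qa, C1qb and C1qc, in a fit that leaves out a rat singled out by these same genes. The log2 differences, males minus females, ran from -0.42 for Cd163 to 0.48 for Ncf1, and their median was -0.04 over the 27 genes with all rats and -0.13 without rat 205, where the medians over all tested genes were -0.000302 and 0.00416.

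Cd163 encodes the scavenger receptor by which resident macrophages take up hemoglobin bound to haptoglobin, and lies on chromosome 4 at 156752082 to 156785467 of rn6. It was at 2.66, 5.49, 6.28, 6.77 and 6.16 CPM in F-Chow rats 205, 213, 214, 228 and 229. In F-HFHS the lowest, median and highest were 4.98, 6.68 and 9.59 CPM. In M-Chow they were 3.55, 4.84 and 5.71 CPM, and in M-HFHS 3.45, 4.28 and 5.79 CPM. Apart from rat 205, all F-Chow values but that of rat 213 exceeded every male value, whereas the F-HFHS range overlapped both male groups. The log2 difference by sex was -0.42 ± 0.14 (SE) with 23 rats, with an adjusted p of 0.0586 in edgeR, and -0.51 ± 0.12 without rat 205, with an adjusted p of 0.00718. On HFHS alone it was -0.60 ± 0.19, with an adjusted p of 0.073 in edgeR and 0.027 without rat 205. On chow it was -0.24 ± 0.20 with 23 rats and -0.42 ± 0.17 without rat 205, with adjusted p of 0.68 and 0.288 in edgeR.

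The C1q genes lie side by side on chromosome 5 between 155246447 and 155264143 of rn6, and encode the 3 chains of the molecule that starts the classical complement pathway. C1qb was at 6.89, 9.86, 12.7, 14.3 and 13.9 CPM in F-Chow rats 205, 213, 214, 228 and 229. Its lowest, median and highest values were 12.02, 14.1 and 18.7 CPM in F-HFHS, 7.38, 9.61 and 12.6 CPM in M-Chow, and 8.31, 10.5 and 14.3 CPM in M-HFHS. The ranges of females and males overlapped on each diet. The log2 difference by sex was -0.31 ± 0.12 with 23 rats and -0.37 ± 0.11 without rat 205, with adjusted p of 0.119 and 0.0345 in edgeR. C1qa differed by -0.24 ± 0.14 and C1qc by -0.26 ± 0.12 with 23 rats, and each by -0.33 without rat 205, with adjusted p of 0.0301 and 0.0315. Cd14, the coreceptor for bacterial lipopolysaccharide, was at 1.54, 2.52, 3.14, 2.52 and 3.06 CPM in the same F-Chow rats. It had lowest, median and highest values of 2.09, 2.94 and 3.68 CPM in F-HFHS, 1.63, 2.06 and 2.56 CPM in M-Chow, and 1.81, 2.44 and 3.02 CPM in M-HFHS. The groups overlapped on each diet, on chow beyond rat 205 only where the highest M-Chow value of 2.56 CPM lay above the 2.52 CPM of rats 213 and 228. The log2 difference of Cd14 by sex was -0.29 ± 0.12 with 23 rats and -0.36 ± 0.10 without rat 205, with adjusted p of 0.118 and 0.0332 in edgeR.

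**Figure D2:**
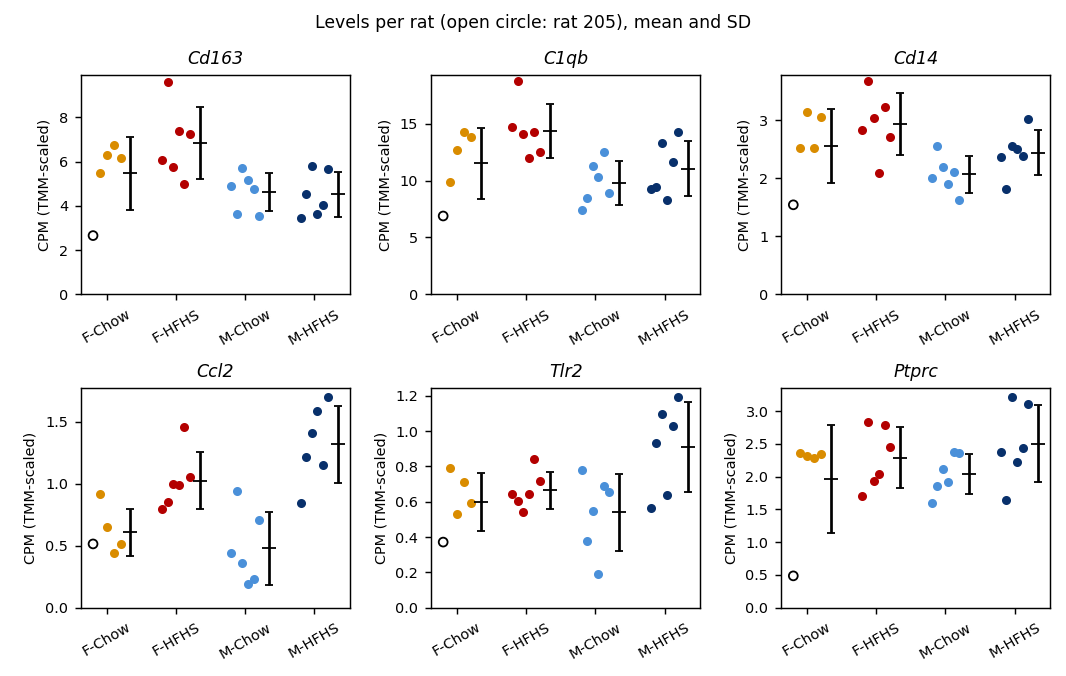
CPM per rat for Cd163, C1qb, Cd14, Ccl2, Tlr2 and Ptprc in the 4 groups, with the mean and SD of each group beside the points and rat 205 as an open circle. Rat 205 is the lowest F-Chow point in every panel but that of Ccl2.

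Genes of hepatocytes were also found in these muscle libraries, and mostly in females. Of 24 hepatocyte genes tested, 23 were lower in males in edgeR, where 5.17% of all tested genes were. The summed level of the hepatocyte genes was 299 to 575 CPM in F-Chow, 46.4 to 498 CPM in F-HFHS, 43.0 to 84.7 CPM in M-Chow and 41.3 to 63.9 CPM in M-HFHS. Kupffer cells, the macrophages of liver, also express Cd163 and C1q. Of 6 Kupffer cell markers, 2 were tested and 1, Clec4f, was lower in males, against the same 5.17% of all tested genes. Clec4f was at 0 in all M-HFHS rats and at 0 to 0.0275 CPM in M-Chow, against 0.257 to 0.483 CPM in F-Chow, and the summed level of the list was 1.09 to 2.45, 0.826 to 2.10, 0.677 to 1.49 and 0.177 to 1.72 CPM in F-Chow, F-HFHS, M-Chow and M-HFHS. In F-HFHS rats 202 and 209 Clec4f was at 0 and albumin at 1.13 and 1.79 CPM. Cd163 in these rats was at 9.59 and 5.78 CPM and C1qb at 18.7 and 14.1 CPM. For both genes rat 202 was the highest of all F-HFHS rats, and rat 209 lay among the others. Rat 225 had the next lowest albumin and Clec4f of this group. Its Cd163 was at 7.269 CPM, between those of rats 202 and 209, and its C1qb at 12.48 CPM, below both. Whether Cd163 and C1qb follow the liver genes within F-HFHS was not tested. With the hepatocyte level as a covariate and rat 205 left out, the log2 difference by sex was -0.61 for Cd163 and -0.47 for C1qb. The adjusted p were 0.231 and 0.345 in edgeR, and 0 of the 27 genes passed, against 0.505% of all tested genes. This fit was chosen after seeing the data. The hepatocyte level itself differed between the sexes, so nothing about the source of these differences is read from it. Of 7 mast cell genes, 4 were lower in males, against 5.17% of all tested genes. Of 11 endothelial genes tested, 8 were higher, against 3.8% of all tested genes. The part of these cells in the differences by sex was not tested further.

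Within each diet, 0 of the 27 genes passed in edgeR with 23 rats. On chow 1.72% of all tested genes passed and 1 of the 27, Laptm5, was lower in males at an unadjusted p under 0.05, where 6.57% of all tested genes were lower. On HFHS 4.83% of all tested genes passed and 2 of the 27, Cd163 and C1qb, were lower in males at an unadjusted p under 0.05, where 10.9% of all tested genes were lower. DESeq2 gave 1 gene on HFHS, Cd163, and 0 on chow, where it gave 7.58% and 2.4% of all tested genes. Laptm5, a lysosomal membrane protein of leukocytes on chromosome 5 at 149047681 to 149069719, was at 3.69, 5.70, 6.88, 6.73 and 7.34 CPM in F-Chow rats 205, 213, 214, 228 and 229, and its lowest, median and highest values in M-Chow were 3.61, 4.97 and 5.61 CPM. Apart from rat 205, the F-Chow values lay above every M-Chow value. In F-HFHS its values were 4.92, 6.47 and 7.93 CPM and in M-HFHS 5.43, 5.82 and 7.79 CPM. The log2 difference on chow was -0.33 ± 0.15 with 23 rats and -0.47 ± 0.13 without rat 205, with adjusted p of 0.374 and 0.0682 in edgeR.

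For diet, 0 of the 27 genes passed in females, 0 in males, 0 averaged over the sexes and 0 for the interaction of sex and diet in edgeR with 23 rats, where 0.015%, 0.0224%, 0.0524% and 0% of all tested genes passed. At an unadjusted p of 0.05 the genes higher on HFHS numbered 1 in females, 5 in males and 4 averaged over the sexes, where 2.97%, 4% and 4.35% of all tested genes were higher. At that p 0 of the 27 were lower, where 3.99%, 3.91% and 5.42% of all tested genes were, and for the interaction 0 were under it, where 4.88% of all tested genes were. Some of these counts turned on rat 205. Without it 1 gene was under that p in females, Cd68 as a lower gene, where 7.32% of all tested genes were under it in either direction. Averaged over the sexes there were 2, Ccl2 higher and Cd68 lower, where 7.95% of all tested genes were under it. For the interaction there were 3, Cd68, Spi1 and Laptm5, against 6.85% of all tested genes, and in males 5 were higher, against 8.41% of all tested genes in either direction. DESeq2 gave 0 genes in females and for the interaction, where it gave 0.0449% and 0.00748% of all tested genes. It gave 1 gene, Ccl2, in males and averaged over the sexes, where it gave 0.18% and 0.412% of all tested genes.

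Ccl2, the chemokine that draws monocytes into tissue, lies on chromosome 10 at 69412017 to 69413870. It was at 0.514, 0.918, 0.652, 0.442 and 0.513 CPM in F-Chow rats 205, 213, 214, 228 and 229. Its lowest, median and highest values were 0.800, 0.995 and 1.46 CPM in F-HFHS, 0.192, 0.399 and 0.943 CPM in M-Chow, and 0.845, 1.31 and 1.70 CPM in M-HFHS. In females rat 213 alone overlapped the F-HFHS range, and in males rat 112 alone overlapped the M-HFHS range. These levels are 7 to 70 counts per rat. The log2 difference of HFHS from chow was 1.44 ± 0.30 in males, 0.74 ± 0.31 in females and 1.09 ± 0.21 averaged over the sexes. The adjusted p of these in edgeR were 0.111, 0.671 and 0.0553. Without rat 205 the differences were 1.45, 0.68 and 1.07, with adjusted p of 0.0836, 0.685 and 0.124 in edgeR. DESeq2 gave adjusted p of 0.00226 in males, 0.587 in females and 0.000646 averaged over the sexes. Without M-Chow rat 112 the difference in males was 1.75, with an adjusted p of 0.0144 in edgeR. That rat alone overlapped M-HFHS for this gene, so the fit without it is not an independent test. Over 39 fits with edgeR, DESeq2 or limma-voom the difference in males ran from 1.29 to 1.75, with adjusted p from 0.00226 to 0.328. With the diets of the sample titles for rats 205, 224 and 225, the difference in females was -0.02 on the log2 scale. The interaction was 0.71 ± 0.43, with an adjusted p of 0.983 in edgeR, and 0.77 without rat 205, with an adjusted p of 0.748. Its receptor gene Ccr2, on monocytes, differed by -0.13 ± 0.24 averaged over the sexes, with an adjusted p of 0.898, and by -0.24 without rat 205, with an adjusted p of 0.798.

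Tlr2 lies on chromosome 2 at 182840727 to 182846061. It was at 0.371, 0.790, 0.531, 0.714 and 0.592 CPM in F-Chow rats 205, 213, 214, 228 and 229. Its lowest, median and highest values were 0.541, 0.645 and 0.844 CPM in F-HFHS, 0.192, 0.603 and 0.779 CPM in M-Chow, and 0.563, 0.982 and 1.20 CPM in M-HFHS. Both diets overlapped in each sex. The log2 difference was 0.74 ± 0.27 in males and 0.45 ± 0.20 averaged over the sexes, with adjusted p of 0.505 and 0.464 in edgeR. Without rat 205 these were 0.75 and 0.39, with adjusted p of 0.398 and 0.622. Cd68, a lysosomal glycoprotein of macrophages on chromosome 10 at 56268720 to 56270640, was at 1.34, 3.16, 2.85, 3.16 and 2.80 CPM in the same F-Chow rats, and its lowest, median and highest values were 1.81, 2.07 and 2.65 CPM in F-HFHS. Apart from rat 205, every F-Chow value lay above every F-HFHS value. In males its values were 2.07, 2.26 and 2.36 CPM on chow and 1.71, 2.44 and 2.66 CPM on HFHS. The log2 difference of Cd68 in females was -0.33 ± 0.17 with 23 rats and -0.49 ± 0.13 without rat 205, with adjusted p of 0.718 and 0.588 in edgeR, and its interaction was 0.38 ± 0.23, with an adjusted p of 0.983, and 0.56 without rat 205, with an adjusted p of 0.632.

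The sign of the diet differences in females turned on rat 205. In females 22 of the 27 genes had a log2 difference above 0 with all rats and 12 without rat 205, where 49.6% and 50.2% of all tested genes did. The median difference of the 27 was 0.15 and then -0.02. In males 25 of the 27 were above 0, where 46% of all tested genes were, with a median of 0.18, which does not involve rat 205 directly. The genes vary together, so these signs are not separate observations. Over the tested genes without Ncf1, the mean log2 deviation from the M-HFHS mean was 0.294 in rat 103 and 0.269 in rat 106. In the other M-HFHS rats it was -0.211 to -0.108. Fibroblast genes in males had summed levels of 662.6 to 844.2 CPM (median 781.7) in M-Chow and 806.2 to 1617 CPM (median 1002) in M-HFHS, and endothelial genes had median sums of 499.2 and 542.8 CPM. The part of these cells in the male differences was not tested. The 4 members with an unadjusted p under 0.05 in males other than Ccl2 were Tlr2, Spi1, Laptm5 and Cybb, with log2 differences of 0.74, 0.46, 0.34 and 0.38. SPI1, also known as PU.1, is the transcription factor that directs myeloid development, and Cybb encodes the catalytic subunit of the phagocyte NADPH oxidase. The adaptor genes Tyrobp and Fcer1g, which pass signals from activating receptors, differed by 0.12 ± 0.12 and 0.14 ± 0.11 by diet averaged over the sexes, and by 0.06 and 0.08 without rat 205, with adjusted p of 0.927 and 0.866 in edgeR.

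**Figure D3:**
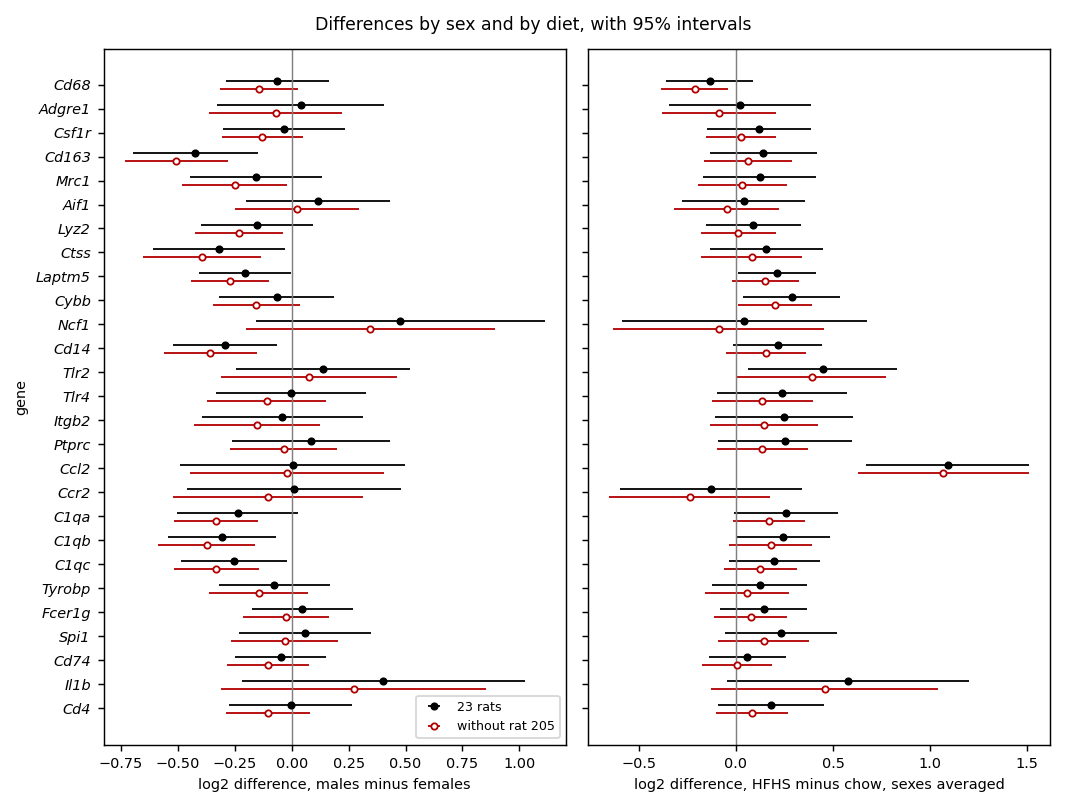
Log2 differences with 95% intervals for the 27 genes, by sex (males minus females, left) and by diet averaged over the sexes (HFHS minus chow, right), with 23 rats in black and without rat 205 in red. The points of Cd163, Cd14 and the C1q genes lie left of 0 by sex, and Ccl2 lies at 1.09 by diet, apart from the other genes.

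Most of the genes varied together from rat to rat, less closely without rat 205. Over 23 rats, as deviations of log2 CPM from the group means, the median correlation between pairs of 26 genes was 0.649, and 0.325 without rat 205. Ncf1, described below, was left out of these pairs and was singled out after its values were seen. The C1q genes varied together most closely, with Pearson's r of 0.893 for C1qa with C1qb, 0.934 for C1qa with C1qc and 0.931 for C1qb with C1qc, and Spearman's rho of 0.92, 0.931 and 0.934. Each had a permutation p of 1e-05 for r and for rho, the smallest that 100000 resamples can give, and an adjusted p of 1.2e-05 over 6 relations. Leaving out the 2 rats farthest from the median of the first gene gave r of 0.881, 0.88 and 0.901. Among 11269 other genes, those most like C1qb after C1qc and C1qa were Ctss, which encodes the lysosomal protease cathepsin S (r of 0.853), F13a1, a coagulation factor subunit also made by resident macrophages (0.811), and the mannose receptor gene Mrc1 (0.805). Those most like Cd163 were Abi3bp (0.908) and Adgre1, which encodes F4/80 (0.861). Ccl2 did not move with the other members, with r of -0.0168 to their mean, and without rat 205 the r to the mean of the others was -0.181 for Ccl2, 0.133 for Aif1 and 0.226 for Il1b. The genes most like it were Rasd1 (0.76), Slc25a26 (0.746), Egr1 (0.744), Cyr61 (0.742) and Bambi (0.73), of which Egr1 and Cyr61 are immediate early genes. These likenesses share libraries and their depth and are given as descriptions.

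Promoters of the listed genes were searched for GAGGAA, a core of the site bound by PU.1, the product of Spi1. This motif holds the GGAA core shared by the ETS family. Both strands of the 250 bases before each start site were read, from RefSeq on GRCr8, which is not the build of the table. Of the 24 listed genes with a promoter sequence, 16 held the motif (66.7%), against 23.3% of 33469 promoters. Among the 16 were Itgam, which was not matched, and Tnf and Cd3e, which did not pass the filter on low counts. C1qa, Cd163, Ncf1, Tlr2, Ccr2, Cx3cr1, Il1b and Cd8a held no match in this window. The last 100 bases before the start are shown, 5′ to 3′ on the strand of each gene, for 6 genes with the motif in this stretch, with the motif in capitals as GAGGAA or, when read on the other strand, TTCCTC. A match is a description of letters and not a site, and any part of PU.1 in the levels of these genes was not tested.
C1qb (chr5:154407828-154407927, minus strand): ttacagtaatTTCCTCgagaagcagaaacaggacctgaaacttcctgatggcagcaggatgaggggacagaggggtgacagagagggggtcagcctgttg
Cd68 (chr10:54882442-54882541, minus strand): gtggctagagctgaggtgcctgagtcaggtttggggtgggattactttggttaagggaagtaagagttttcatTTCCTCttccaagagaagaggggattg
Lyz2 (chr7:54798012-54798111, minus strand): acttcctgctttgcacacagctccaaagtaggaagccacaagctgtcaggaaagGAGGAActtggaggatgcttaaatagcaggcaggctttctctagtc
Ctss (chr2:185775296-185775395, plus strand): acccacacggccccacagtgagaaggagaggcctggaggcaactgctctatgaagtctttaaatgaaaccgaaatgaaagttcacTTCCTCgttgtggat
Cybb (chrX:16065066-16065165, minus strand): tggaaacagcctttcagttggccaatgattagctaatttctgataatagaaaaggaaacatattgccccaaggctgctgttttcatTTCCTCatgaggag
Laptm5 (chr5:148371780-148371879, plus strand): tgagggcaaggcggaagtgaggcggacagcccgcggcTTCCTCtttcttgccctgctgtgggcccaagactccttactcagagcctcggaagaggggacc
In Cybb, Ctss and Cd68 the motif began 14, 15 and 27 bases before the start, and in Lyz2, Laptm5 and C1qb 46, 63 and 90 bases before it.

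Ncf1 followed the slow muscle fibers rather than the leukocyte genes, and was singled out after its values were seen. It encodes p47phox, a cytosolic subunit that activates the same NADPH oxidase as Cybb, and lies on chromosome 12 at 25497104 to 25506300, where no other entry of the table overlaps it. It was at 2.89, 19.9, 18.3, 29.2 and 19.1 CPM in F-Chow rats 205, 213, 214, 228 and 229. Its lowest, median and highest values were 13.4, 19.1 and 24.2 CPM in F-HFHS, 4.20, 26.0 and 46.9 CPM in M-Chow, and 18.95, 22.98 and 36.95 CPM in M-HFHS. The lowest M-Chow value was that of rat 111, which also had the lowest Myh7 of the males, at 262 CPM. The highest, rat 112, had the highest Myh7, at 10810 CPM.

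Of 11269 genes, those most like Ncf1 over 23 rats were Myl2, Tnni1, Tnnc1, Myl3 and Myh7b, with r of 0.976 to 0.971, which encode myosin light chains, troponins and a myosin of slow fibers. With Myh7, Ncf1 had an r of 0.97 and a rho of 0.915, each with a permutation p of 1e-05 and an adjusted p of 1.2e-05 over 6 relations. Leaving out rats 205 and 111 gave an r of 0.902. Within the 4 groups r ran from 0.121 to 0.998. Myh7 ranked 7 among the 11269 genes for likeness to Ncf1 in these same rats. The permutation p of this pair, adjusted over 6 relations, does not account for that search and is given as a description. With Cybb, Ncf1 had an r of 0.462 (permutation p of 0.038) and a rho of 0.229 (permutation p of 0.29, adjusted 0.29), and an r of 0.13 without rats 205 and 111. With the mean of the other members its r was 0.495, and -0.115 without rat 205. Once rat 205 was left out, the r of the other 26 members with Myh7 ran from -0.444 for Csf1r to 0.393 for Tlr4, against 0.95 for Ncf1. The log2 difference of Ncf1 by sex was 0.48 ± 0.32, with an adjusted p of 0.399 in edgeR, and 0.34 ± 0.28 without rat 205, with an adjusted p of 0.497. With the Myh7 level as a covariate, an alternative chosen after seeing the data, it was 0.59 with an adjusted p of 0.000106, and it was higher in males on chow (0.50, adjusted p of 0.0405) and on HFHS (0.69, adjusted p of 0.00259).

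**Figure D4:**
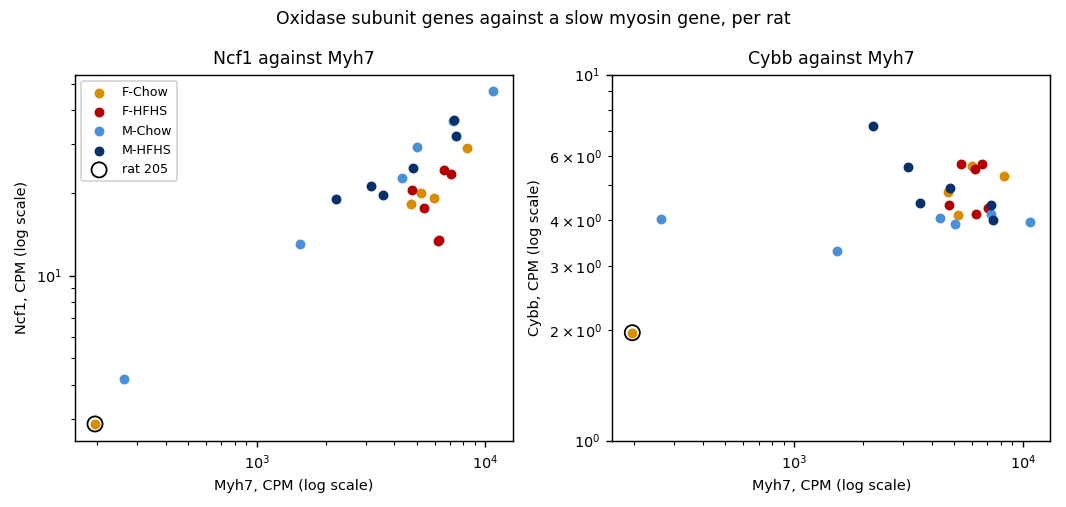
Ncf1 (left) and Cybb (right) against Myh7 in CPM, all on log axes, with 1 point per rat colored by group and rat 205 circled. Ncf1 rises with Myh7 from 2.89 CPM in rat 205 to 46.9 CPM in M-Chow rat 112, whereas in the Cybb panel rat 111, with 262 CPM of Myh7, lies among the other rats.

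A wider set of 132 leukocyte genes, which holds none of the 32 members, had 83 tested. For the effect of diet, 0 of the 83 passed in edgeR in females, in males, averaged over the sexes or as an interaction with sex, with 2, 10, 4 and 4 at an unadjusted p under 0.05, where 6.96%, 7.91%, 9.77% and 4.88% of all tested genes were. By sex 6 passed, 2 higher and 4 lower in males, where 3.8% and 5.17% of all tested genes did. By list, 0 of 26 tested genes of macrophages and monocytes, 1 of 24 pan-leukocyte genes, 2 of 4 T and NK cell genes, 1 of 1 B and plasma cell gene, 0 of 2 neutrophil genes, 0 of 4 dendritic cell genes, 0 of 5 class II genes and 2 of 17 chemokines, cytokines and growth factors passed. Without rat 205 the count was also 6, of 84 tested.

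Higher in males were Tgfb1, the growth factor TGF-β1, with a log2 difference of 0.24 ± 0.06 (adjusted p of 0.0201 in edgeR), and Cd6, a T cell receptor accessory protein, with 1.44 ± 0.42 (0.0369). Cd6 ranged from 2.69 to 26.8 CPM in M-Chow and reached 43.5 CPM in M-HFHS rat 104, where the median of that group was 6.199 CPM, and its adjusted p without rat 205 was 0.0617. Rat 104 had 1914 counts of Cd6 and 1 of Cd3e, and M-Chow rat 114 had 974 of Cd6 and 0 of Cd3e. The source of these Cd6 reads was not tested, and they are not read as T cells. Lower in males were the chemokine gene Ccl9 with -2.41 ± 0.28 (4.91e-06), the regulatory T cell factor Foxp3 with -0.52 ± 0.10 (0.00163), the plasma cell gene Mzb1 with -0.74 ± 0.20 (0.0215) and Lsp1, an actin binding protein of leukocytes, with -0.18 ± 0.06 (0.0402). Ccl9 was at 0.857 to 2.14 CPM in F-Chow and 0.108 to 0.330 CPM in M-Chow, with no overlap. On HFHS the ranges overlapped, with a lowest F-HFHS value of 0.370 CPM and a highest M-HFHS value of 0.375 CPM. The r of Ccl9 with albumin was 0.896 over all rats without subtracting group means, so it includes the difference by sex. Mean albumin was 242 and 108 CPM in F-Chow and F-HFHS, against 5.39 and 1.26 CPM in M-Chow and M-HFHS. Foxp3 overlaps Ccdc22 on the opposite strand, with which its r, also without subtracting group means, was 0.704. It was at 4.37 to 11.2 CPM in libraries where Cd3e was at 0 to 9 counts. How the counting treated strand is not given in the sources used here, so reads of Foxp3 and Ccdc22 cannot be told apart. With the hepatocyte level as a covariate 0 of these genes passed by sex in edgeR, with 12 at an unadjusted p under 0.05, but with that covariate 0.307% of all 13365 tested genes passed and 10.5% were under that p, so nothing about these genes is read from it.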

How the data were processed

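Poly(A) RNA of 23 rats was sequenced in paired reads from directional libraries. According to the methods, fastp was used for trimming and STAR 2.7.6a for alignment (rn6), and SeqMonk gave raw counts per gene over exons. The authors deposited these counts without normalization and with no columns of group comparisons. The annotation release and the strand setting of the counting are not given in the sources used here. The submitters' notes also name DESeq2 1.30.1. Of 18919 entries, 16 carry no gene name (at most 0.000294% of a library) and were left out. No member symbol belongs to several entries. No 2 libraries held identical values.

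Counts were tested with edgeR 4.0.16 (R 4.3.3): filterByExpr by group, TMM scaling, a quasi-likelihood F test with robust fitting on 4 group means, and Benjamini-Hochberg adjustment over the 13365 genes tested, at 0.05. Log2 CPM used a prior count of 2. Each SE is the size of the log2 difference divided by the square root of its F statistic, and 95% intervals are 1.96 SE to each side. They can therefore differ from the test near the threshold. For Laptm5 by sex the interval ended at -0.00319, where the unadjusted p in edgeR was 0.0579. Correlations used deviations from group means and two-sided permutation tests. The r of Ccl9 with albumin and of Foxp3 with Ccdc22 used log2 CPM over all rats instead, without a test. DESeq2 1.42.0 and limma 3.58.1 (voom) were alternatives, with other scaling and filters (mean count above 0.1, or CPM of 1 in 5 rats), the diets of the titles, those 3 rats left out, the hepatocyte level as a covariate, a replicate block and each rat left out. The fitting was tested on simulated data.

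The members and lists were chosen with earlier results of these data known. Genes are described in full if they passed in a contrast or had the 2 smallest p of a contrast where none passed. Other leukocyte genes are named if they passed.

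The numbers in the sample titles do not pair rats. Of 32 pairs of rats with the same number, 5 had deviations correlated above 0.1, with a median r of -0.0368, and 2 of 23 rats correlated best with a rat of their own number.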

Additional observations from a re-analysis of the deposited data

Results flagged for a closer look

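Among 108 combinations of a tested gene and a group, 7 held a rat far from the rest of its group by Dixon's criterion, and chance alone gives about 1 in 20. In 5 of the 7 the rat was F-Chow 205. Its levels were 1.34 CPM for Cd68 (next lowest 2.80), 0.314 CPM for the lipopolysaccharide receptor gene Tlr4 (next lowest 1.01), 0.486 CPM for Ptprc (next lowest 2.28), 1.66 CPM for Tyrobp (next lowest 2.98) and 2.20 CPM for Cd4 (next lowest 5.83). Laptm5 was high in M-HFHS rat 103, at 7.79 CPM where the next was 6.23. Cybb was low in M-Chow rat 115, at 3.30 CPM.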

How the results depend on the processing

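With 23 rats and edgeR the members passing were 0 in each of the 7 contrasts. By sex, the count was 1 with DESeq2, 2 with limma-voom, 5 without the 3 females of conflicting labels and 0 to 5 when each rat was left out, the 5 being without F-Chow rat 205 and 1 without M-HFHS rat 103 or F-HFHS rat 224. Alternatives chosen after seeing the data gave 7 (DESeq2), 6 (limma-voom) and 5 (RLE scaling) without rat 205, 5 without rats 205 and 111, 0 with the hepatocyte covariate and no rat 205, and 1 (Ncf1) with the Myh7 covariate. The shares of all tested genes passing by sex were 12.1% (DESeq2), 10.5% (limma-voom) and 7.79% (3 females out), 11.8%, 10.2% and 8.46% for DESeq2, limma-voom and RLE without rat 205, 9.45% without rats 205 and 111, and 12.6% with Myh7. By diet in males and averaged over the sexes, the 1 gene was Ccl2, with DESeq2 and limma-voom, with and without rat 205, and averaged also with the CPM filter. With 23 rats DESeq2 passed 0.18% of all tested genes in males and 0.412% averaged. In males limma-voom passed 17 of 13365 tested genes, where edgeR passed 3. Leaving out each rat gave 0 to 1 for both, 1 in males without M-Chow rat 112 and 1 averaged without any of rats 101, 112, 119 or 213. On chow, DESeq2 and limma-voom without rat 205 gave 1 (Laptm5) and the Myh7 covariate 1 (Ncf1). On HFHS, DESeq2, leaving out the 3 females, and DESeq2, limma-voom or RLE scaling without rat 205 gave 1 (Cd163), as did leaving out rats 205 and 111, the Myh7 covariate gave 1 (Ncf1), and leaving out each rat gave 0 to 1, the 1 being without rat 205. DESeq2 with 23 rats passed 7.58% of all tested genes on HFHS. For the remaining fits by diet and within a diet, the shares of all tested genes are not given here. Their counts are therefore not read as results about the members. By diet in females and for the interaction the count was 0 under every alternative. The replicate block by title number gave 0 in all 7 contrasts. The direction of 5 named differences, none past the threshold in edgeR with 23 rats, reversed on the log2 scale. Ccl2 by diet in females was -0.0233 with the diets of the titles. Ncf1 with the hepatocyte covariate was -0.0517 on chow, and with rat 205 also left out -0.507 on chow, -0.26 by sex and -0.0135 on HFHS. Tyrobp by diet averaged over the sexes was -0.0966 with the latter and -0.0251 with limma-voom and no rat 205. Of the other leukocyte genes 6 passed by sex, 13 with DESeq2 and 13 with the Myh7 covariate, and 0 with the hepatocyte covariate. The cause of these changes was not tested.

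Depth limits the low genes most. Il1b had as few as 1 count in a rat and Tlr2 and Ccl2 as few as 7, and Cx3cr1, Tnf, Cd3e and Cd8a were not tested under the main filter. With a minimum mean count of 0.1, 30 members were tested, all of the 31 but Tnf, and 0 passed in each of the 7 contrasts.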
